A study of Homo sapiens with 12 samples.

Results

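The genes described here are 40 lysosomal genes, read out in tumours grown from MDA-MB-231 cells. They were taken from a table of 25369 gene symbols by a list of names: 17 genes of the vacuolar proton pump, 6 of the lysosomal membrane, 13 acid hydrolases, 2 lumenal cofactors and 2 transcription factors of lysosomal genes. All 40 were in the table, and all 40 passed the filter on low counts that left 12514 genes for testing.

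RNA was sequenced from 12 tumours, 3 in each of 4 groups. The p38i tumours came from mice given SB202190, a compound that blocks the stress-activated p38 kinases, in a daily dose of 1 mg/kg. The EZH2i tumours came from mice given EPZ-6438 (written EPZ-6428 in one place of the labels), which blocks EZH2, the enzyme that methylates histone H3 within the PRC2 complex, in a daily dose of 10 mg/kg. The combination tumours received both compounds, with doses that the labels do not repeat, and the control tumours received the solvent of 4% DMSO, 30% PEG 300 and 5% Tween 80. All mice were injected intraperitoneally on 5 days of the week once tumours had reached 100 mm3. MDA-MB-231 is a single established line of triple-negative breast cancer, and its cells had been placed in the right inguinal mammary fat pad in 50 µl of Matrigel. Per the labels each group had 10 mice; the age, sex and strain of the mice and the length of treatment are not stated. The libraries are called by the tumour numbers in their titles, except for 2 p38i libraries. The labels give count column 5 to both remaining p38i tumours and column 6 to none, so these libraries are called p38i col5 and p38i col6. Column 5 is p38i by its labels, and column 6 was taken as p38i by elimination.

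Library totals lay between 2208771 counts in EZH2i 6-1 and 4467942 in combination 9-1. The 10 genes listed as marks of MDA-MB-231 cells, among them VIM and CD44, were detected in every library and made up 0.951% to 1.30% of the counts. Genes of other cell types were also counted, and whether mouse reads had been removed is not given in the sources used here. Library p38i col6 held 2976 counts of 12 skeletal muscle genes, against 25 to 114 in each other library. The genes called with p38i are therefore given without p38i col6 as well.

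Lysosomes are the acidic compartments in which cells break down protein, lipid, glycogen and glycans. The vacuolar ATPase pumps protons across the lysosomal membrane: its V1 sector splits ATP on the cytosolic side, and its V0 sector carries the protons through the membrane. The acid activates the hydrolases inside, and membrane proteins protect the lipid bilayer and export the products of digestion. TFEB and TFE3, members of the MiT/TFE family, bind the CLEAR element, a palindrome around the core CACGTG, in the promoters of many lysosomal genes.

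RefSeq promoter windows (GRCh38.p14, 250 bases before to 50 after each start) were at hand for 29 of the 40 genes. ATP6V0D2 was among the 11 genes without a window. The core CACGTG, searched on both strands, stood in the windows of 10 of the 29 genes (34.5%), against 8.77% of all 27305 genes with a window, tested here or not. A gene can have several windows. Counted by window, the core stood in 23.3% of the 43 windows of the 29 genes, against 7.26% of all 35116 windows. The longer form TCACGTGA, which contains the core, stood in 6 (20.7%, against 1.18% of all genes). The 10 genes with the core were ATP6V0B, ATP6V0D1, ATP6V1G1, CD63, CTSA, CTSD, GAA, LAMP1, MCOLN1 and NEU1. The 130 bases before the start are shown for the genes with a window on which the results below turn, in lower case with each CACGTG in capitals and 5′ to 3′ along the gene. ATP6V0D1 is shown as a pump subunit gene whose levels overlapped in all groups, and NPC1 has no CACGTG in its window.
CTSD, chr11:1763928-1764057, minus strand: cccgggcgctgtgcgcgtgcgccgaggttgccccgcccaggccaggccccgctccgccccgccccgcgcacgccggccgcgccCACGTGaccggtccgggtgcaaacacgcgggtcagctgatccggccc
GAA, chr17:80101451-80101580, plus strand: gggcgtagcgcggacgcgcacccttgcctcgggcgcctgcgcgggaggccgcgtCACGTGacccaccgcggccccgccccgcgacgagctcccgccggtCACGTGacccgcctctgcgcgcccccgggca
NEU1, chr6:31862822-31862951, minus strand: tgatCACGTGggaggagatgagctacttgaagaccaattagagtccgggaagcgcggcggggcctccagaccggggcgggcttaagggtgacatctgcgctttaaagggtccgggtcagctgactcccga
MCOLN1, chr19:7522494-7522623, plus strand: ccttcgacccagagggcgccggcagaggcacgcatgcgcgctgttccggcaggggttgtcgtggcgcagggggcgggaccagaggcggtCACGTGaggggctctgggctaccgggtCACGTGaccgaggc
ATP6V0D1, chr16:67481158-67481287, minus strand: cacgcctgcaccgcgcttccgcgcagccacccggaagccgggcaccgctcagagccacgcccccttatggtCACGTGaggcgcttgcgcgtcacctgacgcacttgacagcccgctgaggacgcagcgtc
NPC1, chr18:23586507-23586636, minus strand: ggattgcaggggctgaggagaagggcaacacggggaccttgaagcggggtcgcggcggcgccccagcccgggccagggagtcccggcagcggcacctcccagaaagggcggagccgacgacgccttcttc

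With p38i, 3 of the 40 genes passed the threshold, an adjusted p below 0.05 in edgeR's quasi-likelihood test. ATP6V0D2, the tissue-restricted d2 subunit of the V0 sector, rose 3.78-fold, and NPC1, which exports cholesterol from the lysosome, rose 2.38-fold. CTSD, the aspartic protease cathepsin D, fell to 0.428 of its level in the control tumours. The 3 genes are 7.5% of the list, and 1.77% of all genes tested passed in the same comparison, 0.655% higher and 1.11% lower. The list was chosen with earlier results of these data known. These shares, and the like shares given below, therefore describe the list and do not test it. The list as a whole had no common direction. Its median log2 fold change was -0.04 with 19 values above 0 and 21 below. Over all genes tested the median was -0.00, with 49.9% of values above 0. In bulk tumour RNA, fewer cells of a type and less RNA per cell cannot be told apart.

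**Figure D1:**
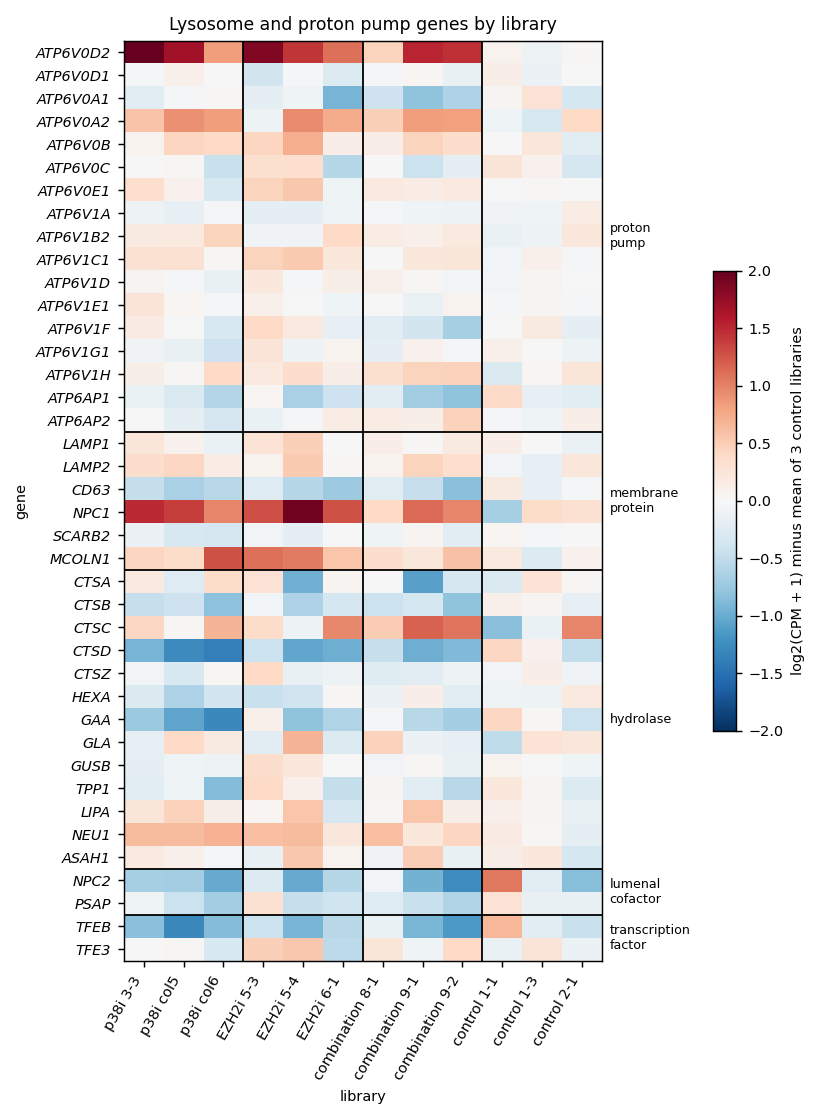
Level of each of the 40 genes (rows, by class) in each of the 12 libraries (columns), as log2(CPM + 1) minus the mean of the 3 control libraries, so that red is above and blue below the control mean. ATP6V0D2, NPC1 and NEU1 are mostly red and CTSD, CD63 and NPC2 mostly blue in treated libraries, while most pump genes stay pale.

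Levels below are in CPM, a gene's counts divided by the TMM-scaled library size and brought to a common scale for all libraries. CPM is not corrected for gene length, so levels are compared between tumours and not between genes. ATP6V0D2 stood at 12.3, 9.66 and 4.89 CPM in p38i 3-3, col5 and col6, at 11.0, 7.95 and 6.11 CPM in EZH2i 5-3, 5-4 and 6-1, and at 3.52, 8.59 and 8.16 CPM in combination 8-1, 9-1 and 9-2. It stood at 2.5, 2.10 and 2.37 CPM in control 1-1, 1-3 and 2-1. Every treated library was above every control library, and the treated libraries were spread more widely than the controls. These levels rest on few reads, 12 to 39 counts in a treated library and 6 to 10 in a control library. The log2 fold change was 1.92 with p38i (SE 0.451, adjusted p = 0.0469, edgeR), 1.83 with EZH2i (SE 0.457, adjusted p = 0.119) and 1.54 with the combination (SE 0.455, adjusted p = 0.192). Only the first passed the threshold, and the differences of the combination from p38i (-0.38, 95% interval -1.23 to 0.47) and from EZH2i (-0.30, -1.16 to 0.56) did not.

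The other d subunit, ATP6V0D1, is the form found in most tissues. It had 9.88, 11.0 and 10.3 CPM in the p38i tumours, 7.72, 9.94 and 8.29 CPM in the EZH2i tumours, 9.96, 10.6 and 9.10 CPM in the combination tumours and 11.2, 9.31 and 10.2 CPM in the control tumours. The ranges of all treated groups overlapped that of the controls, and the log2 fold change with p38i was 0.03 (95% interval -0.47 to 0.53). ATP6V0A2, an a subunit, averaged 47.3 ± 6.02 CPM in p38i tumours, 41.4 ± 14.5 in EZH2i tumours and 45.3 ± 6.29 in combination tumours, against 27.8 ± 7.60 in control tumours (SD, n = 3 each). The p38i and combination libraries were all above the controls, but the fold changes of 0.76 and 0.70 did not pass (adjusted p = 0.134 and 0.240, edgeR). The a1 subunit gene ATP6V0A1 had 36.3, 27.3 and 31.4 CPM in combination tumours, against 50.4, 59.7 and 37.9 CPM in control tumours. The combination libraries lay below the controls, and the log2 fold change of -0.64 had an adjusted p of 0.233.

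The remaining V0 genes were ATP6V0B and ATP6V0C, which encode proteolipid subunits of the rotating ring, and ATP6V0E1, which encodes a small subunit beside it. Their log2 fold changes lay between -0.21 and 0.46 over the 3 treatments. The V1 genes ATP6V1A and ATP6V1B2 encode the subunits between which ATP is split. ATP6V1A had log2 fold changes of -0.11 with p38i, -0.17 with EZH2i and -0.08 with the combination, and ATP6V1B2 had 0.27, 0.09 and 0.13. The stalk and regulatory genes ATP6V1C1, ATP6V1D, ATP6V1E1, ATP6V1F, ATP6V1G1 and ATP6V1H spanned -0.21 to 0.21 with p38i. With the combination, ATP6V1H stood at 0.39 and ATP6V1F at -0.42, and neither passed (adjusted p = 0.280 and 0.321, edgeR). The assembly and accessory genes ATP6AP1 and ATP6AP2 stood at -0.36 and -0.18 with p38i. In the combination tumours ATP6AP1 was below every control library, narrowly in combination 8-1, with a log2 fold change of -0.58 (adjusted p = 0.253).

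Of the 16 pump genes other than ATP6V0D2, 15 had a log2 fold change within 0.5 of 0 with p38i. Their fold changes ran from -0.36 to 0.76 with p38i, from -0.37 to 0.58 with EZH2i and from -0.64 to 0.70 with the combination, with medians of -0.01, 0.09 and -0.00. The 95% intervals with p38i reached down to -0.85 and up to 1.31 in the widest cases, and changes within these intervals were not excluded. Together the 17 pump genes made up 0.146% to 0.175% of the counts in p38i tumours, 0.165% to 0.187% in EZH2i tumours, 0.166% to 0.174% in combination tumours and 0.154% to 0.169% in control tumours. The p38i and control ranges overlapped. Reads of ATP6V0C, ATP6V0E1, ATP6V1E1 and ATP6V1G1 may be shared with processed copies that carry their names in GENCODE, so their counts are uncertain.

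**Figure D2:**
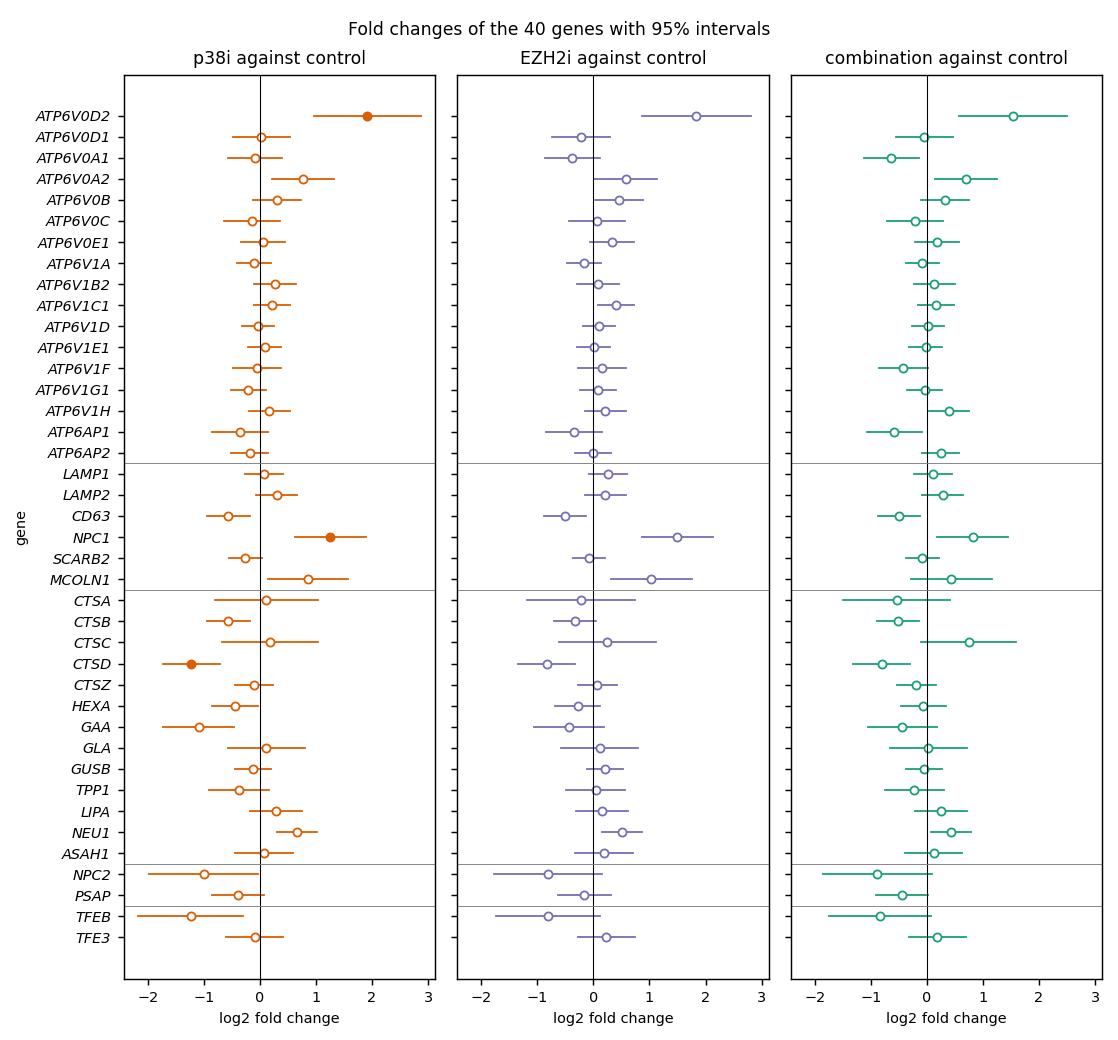
Log2 fold change against control (horizontal axis) of each of the 40 genes for p38i, EZH2i and the combination, with 95% intervals from the edgeR fit. Filled points passed an adjusted p of 0.05, which only ATP6V0D2 (1.92), NPC1 (1.25) and CTSD (-1.22) did, all with p38i.

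Among the 6 membrane protein genes, NPC1 had 42.6, 39.5 and 29.4 CPM in the p38i tumours, 36.6, 57.9 and 36.2 CPM in the EZH2i tumours and 19.3, 32.8 and 29.5 CPM in the combination tumours. It had 8.74, 18.9 and 18 CPM in the control tumours. All treated libraries were above all controls, the nearest being combination 8-1 at 19.3 CPM and control 1-3 at 18.9 CPM. The log2 fold change was 1.25 with p38i (SE 0.297, adjusted p = 0.0478, edgeR). It was 1.5 with EZH2i (SE 0.298, adjusted p = 0.0639) and 0.81 with the combination (SE 0.298, adjusted p = 0.238). NPC1 shares exon bases in GENCODE with the gene on the opposite strand that the table lists as C18orf8, and whether strand was used in counting is not given in the sources used here. C18orf8 held 19 to 69 counts in a library and had a log2 fold change of 0.68 with p38i (adjusted p = 0.162, edgeR), so reads of the pair may not be fully separated.

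MCOLN1, a cation channel that releases calcium from the lysosome, had 7.50, 7.17 and 14.2 CPM in p38i tumours, 12.6, 11.9 and 8.29 CPM in EZH2i tumours and 7.03, 6.38 and 8.47 CPM in combination tumours. Control tumours had 6.24, 4.20 and 5.69 CPM. The treated libraries were all above the controls, by a narrow margin in the combination, and none of the log2 fold changes of 0.85, 1.03 and 0.44 passed (adjusted p = 0.190, 0.189 and 0.522, edgeR). MCOLN1 overlaps exons of PNPLA6 on its own strand, whose log2 fold change with p38i was 0.65 (adjusted p = 0.215). CD63, a tetraspanin of late endosomes and lysosomes, pointed the other way. It had 1694, 1518 and 1620 CPM in p38i tumours, 1989, 1599 and 1425 CPM in EZH2i tumours, 2037, 1714 and 1322 CPM in combination tumours and 2687, 2118 and 2339 CPM in control tumours. Every treated library was below every control, with log2 fold changes of -0.56, -0.51 and -0.49 that did not pass (adjusted p = 0.109, 0.209 and 0.232, edgeR). LAMP1 and LAMP2, the main glycoproteins that line the membrane, and SCARB2, the receptor that carries glucocerebrosidase to the lysosome, had log2 fold changes of 0.07, 0.30 and -0.26 with p38i. The p38i libraries of SCARB2 were all below the controls, while those of LAMP1 and LAMP2 overlapped them. The median of the class was 0.18 with p38i, with 4 values above 0 and 2 below. Its summed counts were 0.221% to 0.238% of the library in p38i tumours, 0.212% to 0.253% in EZH2i tumours, 0.204% to 0.264% in combination tumours and 0.260% to 0.317% in control tumours. The p38i and EZH2i ranges lay below that of the controls, and the combination range overlapped it. Of the counts of the class, 73.5% came from CD63.

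**Figure D3:**
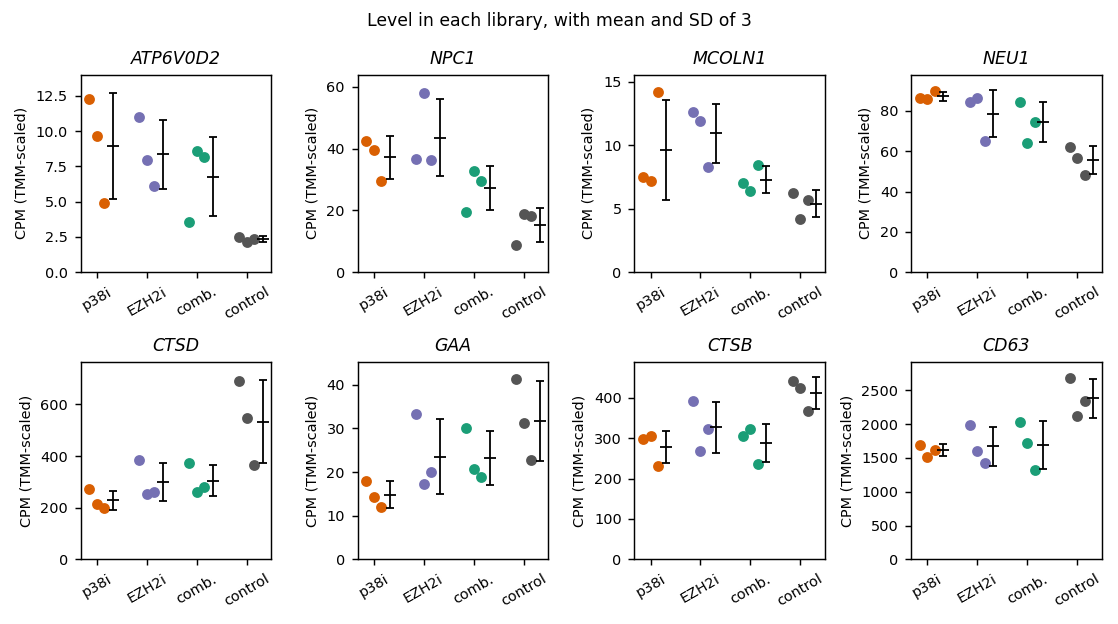
Level in CPM on TMM-scaled library sizes (vertical axes, starting at 0) of 8 genes in the p38i, EZH2i, combination and control tumours, 1 point per library, with the mean and SD of 3 libraries beside it. ATP6V0D2, NPC1, MCOLN1 and NEU1 are lowest in the controls, and CD63 is highest there, in every library.

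Cathepsin D was the only hydrolase to pass. CTSD had 271, 213 and 201 CPM in the p38i tumours, 384, 252 and 261 CPM in the EZH2i tumours and 375, 261 and 279 CPM in the combination tumours. The control tumours had 689, 547 and 365 CPM. The p38i libraries were all below the controls, whereas the highest EZH2i and combination libraries overlapped control 2-1, the lowest control. The log2 fold change was -1.22 with p38i (SE 0.238, adjusted p = 0.0297, edgeR), -0.83 with EZH2i (SE 0.236, adjusted p = 0.145) and -0.81 with the combination (SE 0.236, adjusted p = 0.192).

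GAA, which digests glycogen, had 18.1, 14.3 and 12.0 CPM in p38i tumours, 33.3, 17.2 and 20.1 CPM in EZH2i tumours, 30.2, 20.7 and 18.8 CPM in combination tumours and 41.2, 31.2 and 22.8 CPM in control tumours. It did not pass with p38i (log2 fold change -1.09, SE 0.299, adjusted p = 0.0768, edgeR), although its p38i libraries were below the controls. CTSB, the cysteine protease cathepsin B, had 297, 306 and 232 CPM in p38i tumours, 393, 267 and 322 CPM in EZH2i tumours, 306, 323 and 235 CPM in combination tumours and 442, 425 and 368 CPM in control tumours. The p38i and combination libraries were below the controls, and the log2 fold changes of -0.56 and -0.51 had adjusted p values of 0.109 and 0.226 (edgeR). HEXA, the alpha chain of beta-hexosaminidase, had 33.4, 26.2 and 31.1 CPM in p38i tumours, all below the 38.3, 37.8 and 47.2 CPM of control tumours, with a log2 fold change of -0.45 (adjusted p = 0.227).

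NEU1, the lysosomal sialidase, stood higher in treated tumours. It had 86.2, 85.8 and 89.8 CPM in p38i tumours, 84.6, 86.3 and 65.0 CPM in EZH2i tumours and 84.4, 64.3 and 74.7 CPM in combination tumours, against 62.0, 56.4 and 48.1 CPM in control tumours. No treated library overlapped the controls, but the log2 fold changes of 0.66 with p38i (SE 0.166, adjusted p = 0.0602, edgeR), 0.51 with EZH2i (adjusted p = 0.191) and 0.43 with the combination (adjusted p = 0.249) did not pass. NEU1 and cathepsin A (CTSA) work in 1 protein complex. CTSA had 10 to 32 counts in a library and a log2 fold change of 0.12 with p38i, with a 95% interval of -0.81 to 1.04. The other hydrolases were CTSC and CTSZ (cysteine cathepsins), GLA and GUSB (glycosidases), TPP1 (a tripeptidyl peptidase), LIPA (acid lipase) and ASAH1 (acid ceramidase). Their log2 fold changes with p38i lay between -0.37 for TPP1 and 0.28 for LIPA. Of these 7 genes, CTSC was spread most widely in the controls, with 22.1, 36.6 and 79.9 CPM. Reads of GUSB may be shared with its 11 named pseudogenes.

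The 13 hydrolases had a median log2 fold change of -0.10 with p38i, with 6 values above 0 and 7 below, 0.07 with EZH2i and -0.07 with the combination. Summed, they made up 0.110% to 0.125% of the counts in p38i tumours, 0.126% to 0.156% in EZH2i tumours, 0.121% to 0.138% in combination tumours and 0.136% to 0.178% in control tumours. The p38i and control ranges of the sum did not overlap. CTSD and CTSB held 24.3% and 23.7% of the hydrolase counts, so the sum follows these genes more than the others.

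**Figure D4:**
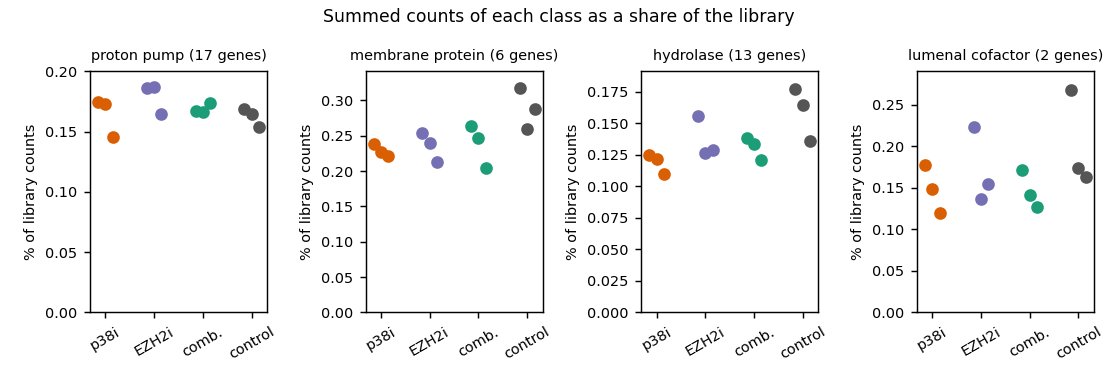
Summed counts of the pump, membrane, hydrolase and cofactor genes as a percentage of all counts in a library (vertical axes, starting at 0), 1 point per library, for p38i, EZH2i, combination and control tumours. Hydrolase and membrane sums are lower in all p38i libraries than in all controls, membrane sums also in all EZH2i libraries, and pump sums overlap.

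The lumenal cofactors are NPC2, which hands cholesterol to NPC1, and PSAP, the precursor of the saposins that help digest sphingolipids. NPC2 had 221, 215 and 174 CPM in p38i tumours, 290, 173 and 236 CPM in EZH2i tumours, 337, 182 and 145 CPM in combination tumours and 731, 302 and 193 CPM in control tumours. The groups overlapped, and control 1-1 stood far above every other library. The log2 fold change with p38i was -1.0 (SE 0.442, adjusted p = 0.256, edgeR). PSAP averaged 1275 ± 270 CPM in p38i tumours, 1496 ± 473 in EZH2i tumours and 1228 ± 146 in combination tumours, against 1671 ± 311 CPM in control tumours (SD, n = 3 each). Its log2 fold change with p38i was -0.39 (adjusted p = 0.363, edgeR).

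TFEB was counted at 9 to 30 reads a library. It had 3.75, 2.48 and 3.67 CPM in p38i tumours, 5.29, 3.48 and 4.8 CPM in EZH2i tumours, 6.74, 3.52 and 2.82 CPM in combination tumours and 12.5, 6.30 and 5.21 CPM in control tumours. The p38i libraries were below the controls, but the log2 fold change of -1.24 did not pass (SE 0.439, adjusted p = 0.150, edgeR). TFE3 averaged 124 ± 15.1 CPM in p38i tumours, 155 ± 56.0 in EZH2i tumours, 151 ± 25.7 in combination tumours and 132 ± 20.9 CPM in control tumours (SD, n = 3 each), with a log2 fold change of -0.10 with p38i. Of the 10 genes with CACGTG in the promoter window, 6 had a positive and 4 a negative log2 fold change with p38i. CTSD was the only one of the 10 to pass, while NPC1, whose printed stretch lacks the motif, was higher. The longer TCACGTGA stood in the windows of ATP6V0D1 (0.03), ATP6V1G1 (-0.21), CTSA (0.12), GAA (-1.09), LAMP1 (0.07) and MCOLN1 (0.85), none of which passed.

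The libraries of 13 of the 40 genes did not overlap between p38i and control tumours (32.5%), 6 of them above and 7 below the controls. Of all genes tested, 24.8% did not overlap, 12.3% above and 12.5% below. At an unadjusted p below 0.05, 12 of the 40 (30%) were counted with p38i, against 18.4% of all genes tested. The calls depended on single libraries, in the whole table as among the 40 genes. Without p38i col6, which carried the muscle transcripts, the log2 fold changes were 2.23 for ATP6V0D2 (adjusted p = 0.0743, edgeR), 1.41 for NPC1 (adjusted p = 0.107) and -1.13 for CTSD (adjusted p = 0.123), and 2 of all genes tested passed, against 221 with all libraries. Leaving out p38i 3-3, p38i col5, control 1-1 or control 1-3 likewise left 0 of the 40 genes past the threshold, with 2, 7, 32 and 3 called among all genes tested. Leaving out combination 9-1 or 9-2 left 1 of the 40, CTSD, with 87 and 122 called among all genes. Without control 2-1, the control nearest to the p38i mean in 19 of the 40 genes, CTSD stood at -1.43 (adjusted p = 0.00939). Over the 12 fits the log2 fold changes stayed between 1.63 and 2.23 for ATP6V0D2, 1.01 and 1.43 for NPC1, and -1.43 and -0.99 for CTSD.

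**Figure D5:**
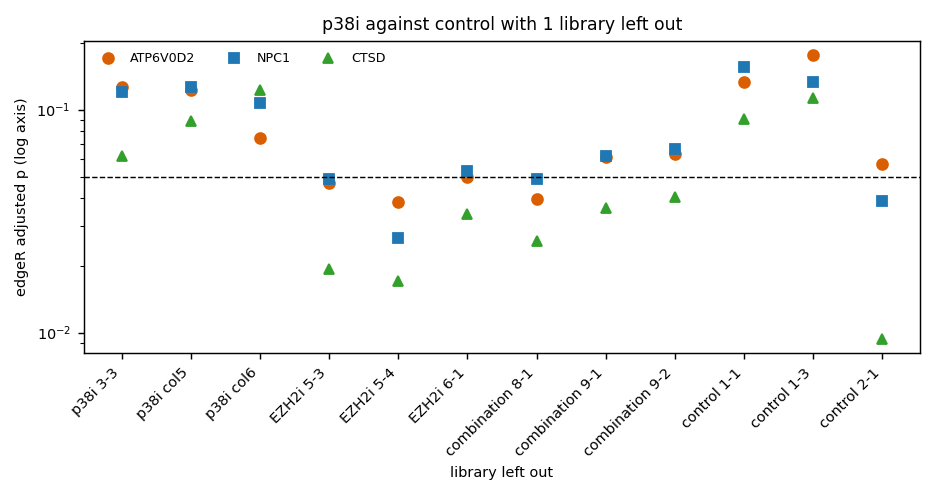
Adjusted p of edgeR for p38i against control (vertical log axis) of ATP6V0D2, NPC1 and CTSD with each of the 12 libraries left out in turn (horizontal axis). The dashed line is 0.05; CTSD is below it in 7 of the 12 fits, and ATP6V0D2 and NPC1 in 4 each.

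With EZH2i, 0 of the 40 genes passed in edgeR, where 0.216% of all genes tested did, and DESeq2 called 3 (ATP6V0D2, CTSD and NPC1) among 232 genes of the whole table. An unadjusted p below 0.05 was seen for 9 genes (22.5%), against 14.7% of all genes tested, and 6 genes (15%) did not overlap with the controls, against 16.4%. The median over the 40 genes was 0.09, with 25 values above 0 and 15 below. ATP6V1C1, a V1 subunit gene, was above the controls in every EZH2i library (log2 fold change 0.41, adjusted p = 0.240, edgeR).

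With the combination, 0 of the 40 genes passed in edgeR, where 1 gene of all those tested did (0.00799%), and DESeq2 also called 0 of the 40, among 167 genes of the whole table. An unadjusted p below 0.05 was seen for 10 genes (25%), against 16.3% of all genes tested, and 14 genes (35%) did not overlap with the controls, against 22% of all genes tested. Besides the genes described above, CTSC had a log2 fold change of 0.74 with the combination (SE 0.394, adjusted p = 0.364, edgeR) and passed when control 2-1 was left out. The 3 comparisons share their control tumours, so like values in them are not independent.

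The combination was also compared with each single inhibitor, and no count over all genes is given there for DESeq2. Against p38i the combination gave 0 called genes by edgeR and by DESeq2, and 0 of all genes tested passed in edgeR. An unadjusted p below 0.05 was reached by ATP6AP2 (0.43), GAA (0.66) and ATP6V0A1 (-0.55), which is 7.5% of the list against 7.81% of all genes tested, and 5 genes (12.5%) did not overlap, against 15% of all. Against EZH2i the combination also gave 0 called genes by both tools and 0 of all genes tested in edgeR. An unadjusted p below 0.05 was reached by ATP6V1F (-0.58) and NPC1 (-0.69), 5% of the list against 3.12% of all genes tested, and these 2 were also the genes without overlap, where 7.11% of all genes had none. The median of the 40 genes against EZH2i was -0.08, with 12 values above 0 and 28 below. Over all genes tested it was -0.02, with 47.7% of values above 0. The interaction, which asks whether the combination departs from the sum of both single effects, gave 0 called genes, where 0.024% of all genes tested passed, and 9 at an unadjusted p below 0.05 (22.5%, against 13.1%). Its smallest p values belonged to NPC1 (-1.94, SE 0.411, adjusted p = 0.0860, edgeR), CTSD (1.25, adjusted p = 0.139) and ATP6V0D2 (-2.21, adjusted p = 0.141), each with the sign opposite to that of the single effects. The p38i, EZH2i and control levels enter the interaction with signs opposite to those in the single effects. An opposite sign is therefore partly built in. DESeq2 called the interaction for CTSD and NPC1, among 226 genes of the whole table, where edgeR called 3.

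Other lysosomal genes were read from further lists. Over all genes tested, 1.77% passed with p38i. Of 12 tested other pump and assembly genes, 1 passed with p38i, ATP6V0E2, a second form of the small e subunit. It had 23.9, 22.4 and 26.2 CPM in p38i tumours, against 50.4, 42.3 and 42.9 CPM in control tumours, with no overlap (log2 fold change -0.90, SE 0.214, adjusted p = 0.0482, edgeR). Of 35 tested other hydrolases and cofactors, 1 passed, CTSK, the collagen-cleaving cathepsin K. It had 9.54, 10.2 and 9.05 CPM in p38i tumours, against 25.8, 19.5 and 15.2 CPM in control tumours, again with no overlap (log2 fold change -1.05, SE 0.233, adjusted p = 0.0404, edgeR). The median of these 35 genes was -0.27 with 10 values above 0 and 25 below. At an unadjusted p below 0.05, 2 were higher and 11 lower, against 1136 and 1164 of all 12514 genes tested. None passed among 18 tested other membrane proteins (median -0.21), 13 genes of enzyme sorting (0.01), 19 genes of MiT/TFE and mTORC1 control (0.03) and 20 autophagy genes (-0.15, with 16 below 0). At an unadjusted p below 0.05 these lists held 4, 2, 4 and 4 genes with p38i, where 18.4% of all genes tested were counted. The membrane and autophagy lists each had 0 higher and 4 lower, against 1136 and 1164 of all 12514 genes tested. The sorting list had 1 higher and 1 lower, and the MiT/TFE and mTORC1 list 2 and 2. With EZH2i the membrane list again had 0 higher and 4 lower, and with the combination too. The autophagy list had 0 higher and 1 lower with EZH2i, and 0 and 2 with the combination. Without p38i col6, ATP6V0E2 stood at -0.96 (adjusted p = 0.151, edgeR) and CTSK at -1.0 (adjusted p = 0.162). With EZH2i and with the combination, 0 genes of these lists passed, where 0.216% and 0.00799% of all genes tested did. The 35 other hydrolases and cofactors had a median of -0.21 with EZH2i and -0.26 with the combination. At an unadjusted p below 0.05, 2 were higher and 6 lower with EZH2i, against 930 and 912 of all genes tested. With the combination 0 were higher and 8 lower, against 958 and 1085 of all genes tested.

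Genes of other cell types were measured because macrophages and osteoclasts use ATP6V0D2, CTSK and much of the lysosomal machinery. Of 14 macrophage markers, 4 passed the filter and 0 were called, where 1.77% of all genes tested were called with p38i. The summed counts of the 14 markers were 83 to 225 in p38i, 91 to 111 in EZH2i, 123 to 157 in combination and 63 to 132 in control libraries. The defining macrophage genes C1QA, C1QB and TYROBP reached at most 1 count in a library, and CD163 at most 2. All these counts are of human genes after alignment to hg19. Low counts therefore do not show that such cells of the mouse host were few. Other markers of the list were counted in every library, with 27 to 106 counts of PTPRC, 4 to 66 of EMR1 and 3 to 29 of AIF1. The 4 tested markers had a median log2 fold change of 0.54 with p38i, 3 of them above 0, and PTPRC stood at 0.69 (unadjusted p = 0.0381, adjusted p = 0.242, edgeR). Among 10 osteoclast and giant cell markers, OCSTAMP was at 0 in all 12 libraries, and ACP5 reached at most 1 count and DCSTAMP at most 3. ITGB3 held 8 to 30 counts, OSCAR 1 to 23 and SIGLEC15 1 to 70 in a library. SIGLEC15, a cell surface lectin, had 10.2, 11.0 and 17.1 CPM in p38i tumours, 6.51, 2.73 and 10.0 CPM in EZH2i tumours, 1.17, 1.10 and 6.28 CPM in combination tumours and 2.5, 0.300 and 4.5 CPM in control tumours. Its EZH2i and combination libraries overlapped the controls, while those of ATP6V0D2 were all above them. The p38i libraries of SIGLEC15 were all above the controls, as for 12.3% of all genes tested, with a log2 fold change of 2.34 (SE 0.714, unadjusted p = 0.00575, adjusted p = 0.106, edgeR). CTSK, also 1 of the 10 markers, went the other way (-1.05, as given above). The 4 tested markers had a median log2 fold change of -0.04 with p38i, 2 of them above 0 and 2 below. The summed counts of the 10 markers were 102 to 163 in p38i, 103 to 147 in EZH2i, 111 to 127 in combination and 103 to 141 in control libraries. Fibroblast markers included PDGFRB, which fell with p38i (log2 fold change -2.03, adjusted p = 0.0433, edgeR) and which, like CTSD, had its highest level in control 1-1. The 8 tested fibroblast markers had a median log2 fold change of -0.14 with p38i, 3 of them above 0 and 5 below. The summed counts of the 10 fibroblast markers were 854 to 3373 in p38i, 1589 to 3957 in EZH2i, 2458 to 3593 in combination and 1905 to 2445 in control libraries, and DCN was at 0 in 4 libraries. Within this sum COL1A1 held 464 to 2483, COL3A1 174 to 1340 and COL1A2 165 to 497 counts in a library. Among endothelial markers TIE1 rose with p38i (3.36, adjusted p = 0.0298, edgeR), with 9 to 29 counts in p38i and 0 to 3 in control libraries, and CLDN5 was at 0 in 10 libraries. Most tested endothelial markers went the other way: the 6 had a median of -0.32 with p38i, 2 above 0 and 4 below. The summed counts of the 10 endothelial markers were 251 to 314 in p38i, 206 to 281 in EZH2i, 274 to 342 in combination and 192 to 473 in control libraries. ROBO4 alone held 125 to 345 counts in a library and every other endothelial marker at most 47, so the sum mainly follows ROBO4. Without p38i col6, PDGFRB stood at -1.84 (adjusted p = 0.188, edgeR) and TIE1 at 3.10 (adjusted p = 0.123). The part of other cell types in the results above was not tested.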

How the data were processed

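The deposited values are raw counts for each gene symbol in each of the 12 libraries, and no scaling is named per the file headers. Per the submitters' processing notes, Trim Galore 0.5.0, STAR 2.6.0 and the build hg19 were used. Libraries were made from 1.3 µg of RNA, and the labels' protocols mention SMARTer mRNA as well as QuantSeq chemistry without saying which applies. The counting program, annotation and use of strand are not given in the sources used here. A further 3 lines named no gene and held 0 counts.

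Low counts were removed by filterByExpr. The 4 group means were then estimated together by the robust quasi-likelihood fit of edgeR 4.0.16 (R 4.3.3) after TMM scaling. P values were two-sided and adjusted by the Benjamini-Hochberg method over 12514 genes, with a threshold of 0.05, and every adjusted p named for edgeR comes from this fit. CPM values and their SD were computed from the deposited counts. Alternatives used DESeq2 1.42.0, limma-voom (limma 3.58.1), other scalings and filters, and each library left out. The biological coefficient of variation was 0.219. On simulated counts for p38i against control (12320 genes), edgeR recovered 0% of genes changed by 0.5 on the log2 scale, 40% at 1, 88% at 1.5 and 100% at 2, with 3 false among 117 calls. The labels do not say whether tumours of a group came from separate mice, so p values measure the spread between these tumours.

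The 40 genes and all further lists were chosen with earlier results of these data known. By rule, genes described in full passed in any comparison or had one of the 5 smallest p values of a treatment against control. Levels by library of ATP6V0D1, HEXA, NPC2, TFEB, the CTSC controls and the marker SIGLEC15 are given beside them, chosen after their values were seen. Genes outside the 40 were named with values if they were in a further list and passed, share exons with a named gene, or serve as markers of a cell type. The 10 genes listed as absent from MDA-MB-231 made up 0.00742% to 0.0194% of the counts, and 6 of them passed the filter. They were not all absent: GATA3 held 53 to 174, EPCAM 58 to 261 and CDH1 1 to 185 counts in a library, while MLANA held at most 1. Of 6 erythroid markers 1 was tested and 0 were called. Skeletal muscle markers had 4 tested and 0 called. Gene overlaps and named pseudogenes come from GENCODE v29 and promoter windows from RefSeq, both on GRCh38, which is not the build of the counts. No intervals for counting error alone are given.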

Additional observations from a re-analysis of the deposited data

How the results depend on the processing

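The number of the 40 genes called with p38i was 3. Among all genes tested 221 were called. It was 7 by DESeq2 (adding CD63, CTSB, GAA and NEU1), 1 by limma-voom and 1 with only the p38i and control libraries in the fit (CTSD both times), where 632, 165 and 242 of all genes were called. It ran from 0 to 5 over the 12 fits that left out 1 library, with 2 to 568 of all genes called. In alternatives chosen after seeing the data, it was 0 with p38i represented by 3-3 alone, which leaves out both libraries of uncertain column, and 0 with control represented by 2-1 alone, with 0 and 7 of all genes called. There the lone library is assumed to vary like the other groups. With EZH2i the number was 0, and it was 3 by DESeq2, 2 without the filter on low counts (ATP6V0D2 and NPC1) and 0 to 2 with 1 library left out. Of all genes 27 were called, against 232 by DESeq2 and 114 without the filter. With the combination it was 0, and 0 to 2 with 1 library left out, the highest without control 2-1 (CTSC and CTSD), where 229 of all genes were called. For the interaction it was 0, and it was 2 by DESeq2 and 1 without the filter (NPC1), with 226 and 70 of all genes called. For the combination against p38i and against EZH2i it was 0 in every alternative run, for which counts over all genes are not given here. The causes of these differences were not tested.

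For the fold changes of single genes, 315 alternative values were computed: 266 kept their direction and side of the threshold, 31 lost the threshold, 18 gained it and 0 changed direction. Scaling by library totals alone put the median log2 fold change of all genes at 0.05 with p38i, 0.05 with EZH2i and 0.07 with the combination, and turned the median of the 40 genes with p38i to 0.01 and with the combination to 0.03. No paired analysis was possible because the groups share no tumour numbers. Changes of 0.5 on the log2 scale were not recovered in simulated data of this depth and spread, and ATP6V0D2, ATP6V0D1, TFEB, CTSA and MCOLN1 rest on under 60 counts in every library.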
